A study of Mus musculus with 4 samples.

Results

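Genes of the striated muscle sarcomere, its Z-disc and its calcium cycling were followed in the skin of Tsk1/+ mice, sorted by the fibre type in which each isoform is usually found. The members were 51 genes named by symbol; 50 of them had at least 1 named probe, out of 19532 named genes tested, and Smpx had none and was not analysed here. The 50 genes were measured by 99 probes, which were averaged per gene.

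The series is 1 group of 4 two-colour arrays. On each, Cy3-labelled RNA of Tsk1/+ mouse skin was set against a Cy5-labelled reference RNA, the same on all arrays, which the labels enter as a cell line under the name UMR. Whether UMR is 1 line or a mixture was not determined here. The Tsk1 (tight skin) mutation lies in Fbn1, the fibrillin-1 gene, is carried on 1 allele here, and is used to model scleroderma. The titles call the mice transgenic and number the arrays 1-1, 1-2, 2-1 and 2-2. No skin without the mutation was analysed here, so no effect of the mutation can be read from the values, and the labels used here give no age, sex or skin site. Whether the 4 samples are 4 animals is not in the labels. Every p-value therefore reflects the spread among these samples alone, which may be technical.

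Force in striated muscle comes from myosin heavy chains, with their light chains, that pull on thin filaments of actin, troponin and tropomyosin between Z-discs. Calcium released through the ryanodine receptor starts the pull, and a calcium pump of the sarcoplasmic reticulum ends it. Fast fibres, slow fibres and heart use different gene copies for most of these parts, with some copies shared between slow fibres and heart. Mouse skin rests on a thin sheet of striated muscle, the panniculus carnosus, and a skin sample may or may not include it.

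The values are log ratios of the 2 channels. Neither the log base nor the channel used as numerator is stated in the labels; base 2 was read from the spacing of the values. The median deposited value of 14 cornified epidermis genes was -5.57, -5.06, -4.93 and -5.61 on arrays 1-1, 1-2, 2-1 and 2-2, while the median of all genes was 0. Cornified cells are a part of skin that a cell line in culture would ordinarily not have. All signs were therefore turned, so that a positive log2 ratio means more signal from skin, and every direction below rests on this likely reading. These genes set the direction and so do not check the tissue label; 11 of the 14 passed as higher, and Flg was listed at 0 on all arrays. Arrays correlated at 0.823 to 0.889 over all probes (Pearson's r, across probes, which are not independent replicates). An exact 0 was listed for 21.4% to 29.1% of probes on an array, and 45.6% to 54.1% of probes, zeros included, carried a value that recurred on 100 or more probes of the same array. Such a value is called recurring below, since it is not particular to a probe.

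A log2 ratio is relative to how much of the same gene the reference holds. Ratios of different genes therefore do not order those genes by their amount in skin. In whole skin, more muscle cells and more RNA per muscle cell cannot be told apart. Skin carried Cy3 on every array, with no dye swap, so dye and sample cannot be told apart.

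The myosin heavy chain genes carry much of the contrast between fibre types, and their sequences before the start site are shown because the array values of neighbouring genes differed. Myh3 (embryonic), Myh2, Myh1 and Myh4 (the fast heavy chains of adult skeletal muscle) and Myh8 (perinatal) lie next to each other on chromosome 11, and Myh7 (slow fibres and heart) lies beside Myh6 (heart) on chromosome 14. The sequences are RefSeq's on GRCm38.p6, from 250 bases before to 50 after the annotated start, 5′ to 3′ on the gene's strand: Myh2 at chr11:67170777-67171076 (+), Myh1 at chr11:67199852-67200151 (+), Myh4 at chr11:67237562-67237861 (+), Myh8 at chr11:67276874-67277173 (+), Myh3 at chr11:67078050-67078349 (+) and, for the first of 2 windows listed for Myh7, chr14:54994577-54994876 (-). The motifs were chosen after the ratios were seen. Capitals mark matches on either strand to TATAAA, to CATTCC (the MCAT motif bound by TEAD factors) and to the consensus motifs named MEF2 and CArG, and a stretch of 14 bases shared by 4 of the windows.
Myh2: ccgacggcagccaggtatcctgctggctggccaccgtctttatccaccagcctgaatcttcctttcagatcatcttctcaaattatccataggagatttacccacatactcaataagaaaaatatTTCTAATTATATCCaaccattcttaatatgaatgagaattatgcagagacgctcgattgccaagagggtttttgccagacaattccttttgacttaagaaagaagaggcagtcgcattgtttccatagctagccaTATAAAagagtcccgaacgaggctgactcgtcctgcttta
Myh1: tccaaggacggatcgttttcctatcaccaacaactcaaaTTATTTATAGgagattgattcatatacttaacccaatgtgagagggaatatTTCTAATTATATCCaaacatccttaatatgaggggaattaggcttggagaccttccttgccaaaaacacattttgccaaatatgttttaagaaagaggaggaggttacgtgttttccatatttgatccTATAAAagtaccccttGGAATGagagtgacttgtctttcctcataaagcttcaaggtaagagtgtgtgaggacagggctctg
Myh4: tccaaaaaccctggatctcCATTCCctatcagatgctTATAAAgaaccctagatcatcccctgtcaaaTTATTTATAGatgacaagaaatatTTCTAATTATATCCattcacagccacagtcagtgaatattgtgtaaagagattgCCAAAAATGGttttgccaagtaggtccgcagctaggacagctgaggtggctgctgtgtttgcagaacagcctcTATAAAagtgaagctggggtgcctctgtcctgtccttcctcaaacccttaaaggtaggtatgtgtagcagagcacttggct
Myh8: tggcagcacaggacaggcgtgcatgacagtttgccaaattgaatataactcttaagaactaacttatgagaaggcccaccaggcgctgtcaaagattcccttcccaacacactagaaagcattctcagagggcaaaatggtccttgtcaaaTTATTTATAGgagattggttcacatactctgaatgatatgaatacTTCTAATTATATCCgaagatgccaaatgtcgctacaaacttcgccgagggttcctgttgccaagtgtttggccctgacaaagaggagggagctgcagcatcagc
Myh3: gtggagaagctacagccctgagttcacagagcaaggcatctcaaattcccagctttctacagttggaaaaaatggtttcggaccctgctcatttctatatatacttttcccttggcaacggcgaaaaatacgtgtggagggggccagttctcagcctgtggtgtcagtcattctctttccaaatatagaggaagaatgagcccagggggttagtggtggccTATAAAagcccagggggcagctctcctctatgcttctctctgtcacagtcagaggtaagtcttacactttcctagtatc
Myh7: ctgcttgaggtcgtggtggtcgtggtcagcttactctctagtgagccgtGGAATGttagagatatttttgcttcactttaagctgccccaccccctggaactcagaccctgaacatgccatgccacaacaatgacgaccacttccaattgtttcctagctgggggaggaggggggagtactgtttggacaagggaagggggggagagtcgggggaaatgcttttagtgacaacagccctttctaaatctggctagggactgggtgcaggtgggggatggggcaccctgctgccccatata

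The 14 bases common to Myh2, Myh1, Myh4 and Myh8, ttctaattatatcc, were in the windows of these 4 genes and of no other gene among 27025 in the table, on either strand. Myh2, Myh1 and Myh4 shared a run of 20 bases around it, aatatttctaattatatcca. The MEF2 match of Myh1, Myh4 and Myh8 was the same in all 3, TTATTTATAG, within a shared run of 15 bases, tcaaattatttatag. None of these runs was in the windows of Myh3 or Myh7. Each run was picked as the longest one common to its named genes, so its presence in their windows was fixed by that choice. How often such a run would occur elsewhere by chance was not tested. A TATAAA began 32, 31 and 29 bases before the start in Myh1, Myh4 and Myh3, and the match of Myh2 lay after the annotated start.

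Windows were found for 40 of the 51 members. The MEF2 consensus was in 8 of these 40 (20%) and in 3.26% of all 27025 genes' windows. The CArG box, the site of serum response factor, was in 6 of 40 (15%) and 1.57% of all, CATTCC in 12 of 40 (30%) and 14.6% of all, and TATAAA in 11 of 40 (27.5%) and 14.2% of all. The E-box CANNTG, the motif of myogenic basic helix-loop-helix factors, was in 34 of 40 (85%) and in 72.1% of all. The MEF2, TATAAA and CArG patterns can overlap in the same bases, as MEF2 and TATAAA did in Myh1, Myh4 and Myh8. By class, the MEF2 consensus was in 3 of 10 fast genes (Myh1, Myh4 and Pvalb) and 2 of 12 slow genes (Casq2 and Myoz2). It was also in 2 of 12 genes of both fibre types, 1 of 2 developmental and 0 of 4 cardiac genes. CATTCC was in 4 of 10 fast and 3 of 12 slow genes, TATAAA in 4 and 2, and CArG in 1 and 1. The E-box was in 7 of 10 fast genes (70%, near the 72.1% of all) and in 12 of 12 slow genes. A match describes letters in this window and is neither a shown site nor a cause.

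Of the 50 sarcomere genes, 36 were higher in Tsk1/+ skin than in the reference, 2 were lower and 12 did not pass. The test was limma's, with p adjusted over all 19532 genes; a gene passed with adjusted p under 0.05 and a mean ratio at least 2-fold up or down (the minimum size below). Over all genes tested, 11.0% were higher and 7.51% lower. The median log2 ratio of the 50 genes was 4.23, against 0.017 over all genes. The 36 were all 15 fast genes, all 15 measured genes used by both fibre types, 5 of 14 genes of slow fibres or of slow fibres and heart, and the perinatal Myh8. None of the 4 cardiac genes was higher. Class medians of the log2 ratio were 5.74 for fast, 0.24 for slow, -0.0079 for cardiac and 4.20 for genes of both fibre types. The 2 developmental genes stood at 1.48 and -0.18. The slow median depended on which values were kept: without exact zeros and recurring values, 10 slow genes kept a value, 6 of them were higher and 1 lower, and their median was 3.03.

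**Figure D1:**
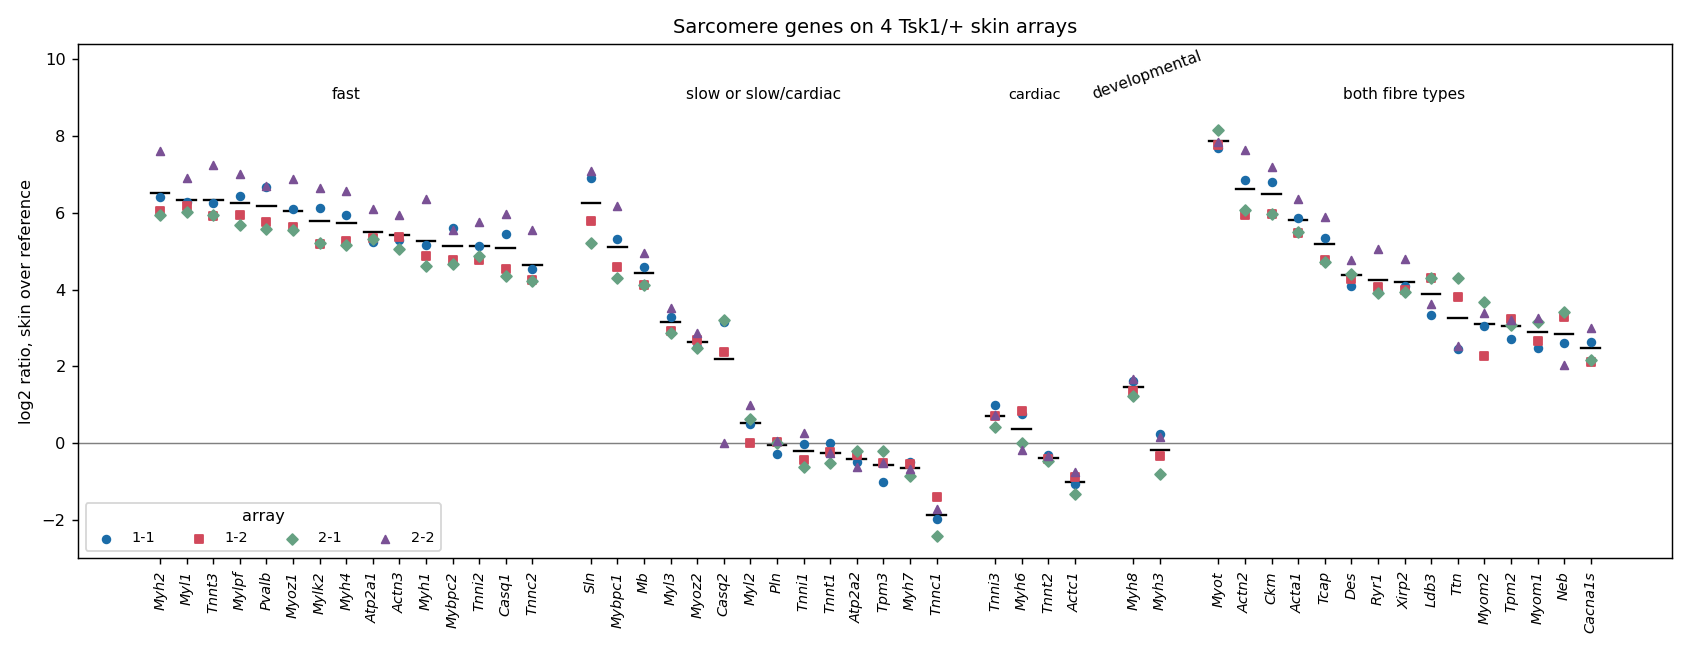
Log2 ratio of skin over reference (vertical axis) for the 50 measured sarcomere genes, grouped by fibre type and ordered by mean within a class; symbols are the 4 arrays and black bars the means. All 15 fast genes lie at 4.22 or above on every array, whereas slow and cardiac genes spread from -2.41 to 7.10.

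Array values are given in the order 1-1, 1-2, 2-1 and 2-2 throughout, as log2 ratios of skin over reference. The fast myosin heavy chain Myh2 stood at 6.42, 6.06, 5.95 and 7.60. Myh4, the heavy chain of the fastest fibres, stood at 5.95, 5.27, 5.15 and 6.58. Myh1 stood at 5.15, 4.89, 4.62 and 6.37; its 2 probes had means of 5.75 and 4.24, and the lower one had no value on array 2-2, so that value rests on the other. All 3 were highest on array 2-2 and lowest on array 2-1. Their means were 6.51 ± 0.76, 5.74 ± 0.66 and 5.26 ± 0.77 (SD, n = 4 arrays here and after every ± below). Probe sequences were not used here, and heavy chain genes of this cluster are alike, so signal shared between them by cross-hybridisation was not tested.

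The light chains of fast myosin and 2 proteins that act on myosin also passed. Myl1, the essential light chain of fast fibres, stood at 6.28, 6.18, 6.02 and 6.90, with its 2 probes at means of 7.25 and 5.44. Mylpf, the fast regulatory light chain, stood at 6.43, 5.94, 5.68 and 7.005. No array of either light chain came near the reference level. Mylk2, the kinase that phosphorylates the regulatory light chain in skeletal muscle, stood at 6.14, 5.18, 5.22 and 6.64. Mybpc2, the fast myosin binding protein C, stood at 5.59, 4.77, 4.68 and 5.54. It was the fast gene that was highest on array 1-1; the other 14 fast genes were highest on array 2-2.

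On the thin filament, the 3 fast troponins all passed. Troponin C, the calcium sensor, is encoded in fast fibres by Tnnc2, which stood at 4.54, 4.25, 4.22 and 5.55. Tnni2, the inhibitory subunit, stood at 5.14, 4.78, 4.87 and 5.76. Tnnt3, the subunit that binds tropomyosin, stood at 6.25, 5.92, 5.94 and 7.25. Tnnc2 had the lowest mean of the fast class (4.64 ± 0.62) and Myh2 the highest. At the Z-disc, Actn3, the alpha-actinin of fast fibres, stood at 5.29, 5.37, 5.06 and 5.95, and Myoz1, a calsarcin that binds calcineurin, at 6.11, 5.64, 5.55 and 6.89.

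Calcium handling genes of fast fibres also passed. Atp2a1, the fast calcium pump of the sarcoplasmic reticulum, stood at 5.24, 5.34, 5.32 and 6.09, a narrow range apart from array 2-2. Casq1, which stores calcium inside the reticulum, stood at 5.45, 4.53, 4.36 and 5.97. Pvalb, the calcium-buffering parvalbumin of fast fibres, stood at 6.68, 5.76, 5.58 and 6.69. Adjusted p-values of the 15 fast genes lay between 0.000360 for Myl1 and 0.00153 for Casq1 (limma). None of the 91 probe values behind these 15 genes was an exact 0 or a recurring value.

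Of the slow heavy chain, regulatory light chain and troponins, none was higher. Myh7, the heavy chain of slow fibres and heart, stood at -0.49, -0.53, -0.86 and -0.67 (mean -0.64 ± 0.17, adjusted p = 0.00619, under the minimum size). Of its 8 probe values, 7 were recurring. Myl2, the slow and ventricular regulatory light chain, stood at 0.50, 0, 0.63 and 1.00, all 4 of them recurring or 0. Tnni1, the slow troponin I, stood at -0.014, -0.44, -0.61 and 0.26, with 6 of 8 probe values recurring. For these 3 genes the ratios say little beyond that no large one was recorded; whether skin and reference both lacked a usable signal was not tested.

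Tnnt1 and Tnnc1 had no recurring value. Tnnt1, the slow troponin T, stood at -0.003, -0.22, -0.52 and -0.25 (mean -0.25 ± 0.21, adjusted p = 0.130). Tnnc1, the troponin C of slow fibres and heart, stood at -1.98, -1.39, -2.41 and -1.71 and was lower in skin (mean -1.87 ± 0.43, adjusted p = 0.00429). Against a 2-fold change as the null (limma's treat) its adjusted p was 0.0615. Tpm3, a tropomyosin of slow fibres that other cells also use, stood at -1.01, -0.53, -0.20 and -0.52, and Atp2a2, the calcium pump of slow fibres and heart that most cells share, at -0.50, -0.32, -0.19 and -0.63. Neither gene mean reached the minimum size. A probe of each passed as lower by itself over all named probes (limma), for Tpm3 at a mean of -1.15 (adjusted p = 0.0304) and for Atp2a2 at -1.89 (adjusted p = 0.00961). Another Atp2a2 probe, annotated to a cDNA clone, was listed at 0 on all 4 arrays. Pln, phospholamban, which restrains the Atp2a2 pump, stood at -0.27, 0.027, 0 and 0.057, every value 0 or recurring.

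Other genes assigned to the slow class were high, and whether slow or fast fibres were their source was not tested. Sln, sarcolipin, a small peptide that restrains the calcium pump, stood at 6.90, 5.80, 5.20 and 7.10, the highest mean of the class (6.25 ± 0.90, adjusted p = 0.00140). Mybpc1, the myosin binding protein C named for slow fibres, stood at 5.32, 4.59, 4.31 and 6.18. Mb, the oxygen carrier myoglobin, stood at 4.59, 4.11, 4.11 and 4.96. All 3 followed the fast genes in being highest on array 2-2. Sln, Mybpc1 and Mb each rested on 1 probe.

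Probes of the remaining slow genes went apart. Myl3, the slow and ventricular essential light chain, had 1 probe at 6.71, 6.07, 6.16 and 7.15 (adjusted p = 0.000659 over all 32664 named probes) and another at -0.14, -0.23, -0.39 and -0.088 (adjusted p = 0.0758). Both are annotated to the same RefSeq mRNA, so the gene mean of 3.15 ± 0.31 lies where neither probe does. Myoz2, the calsarcin of slow fibres and heart, had a RefSeq mRNA probe at 5.03, 5.36, 4.94 and 5.73 and a cDNA clone probe listed at 0 on all 4 arrays. Casq2, the calsequestrin of heart and slow fibres, had a single probe at 3.16, 2.37, 3.21 and 0, with a listed 0 on the last of them. The adjusted p was 0.0765, and Casq2 passed once array 2-2 was left out (mean 2.91, adjusted p = 0.0121).

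Fast and slow copies of the same part were set side by side in 10 pairs, drawn up after the ratios were seen. With probes averaged per gene, the lowest array of the fast gene lay above the highest array of the slow gene in 9 pairs, and in 8 pairs when the highest probe of each gene was used instead. Every fast gene lay at 4.22 or above on each array, while the median over all genes was 0.017 and 11.0% were higher. Lack of overlap with a fast gene is therefore not particular to slow copies, and its share over all genes was not computed. With all choices of probes and values tried, the arrays of troponin T, troponin C and calcium pumps stayed apart. Those of Casq1 and Casq2, given below, also stayed apart with each choice. The fast ratio exceeded the slow one by 6.59 ± 0.62 for troponin T (Tnnt3 and Tnnt1), 6.51 ± 0.67 for troponin C (Tnnc2 and Tnnc1) and 5.90 ± 0.55 for calcium pumps (Atp2a1 and Atp2a2).

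For Myh4 and Myh7, Mylpf and Myl2, and Tnni2 and Tnni1 the arrays did not overlap either, with mean differences of 6.38, 5.73 and 5.34. Most values of these 3 slow genes were 0 or recurring, so these distances rest on no measured level of the slow gene. With zeros and recurring values left out, an alternative added after seeing the data, no such comparison could be made for the 3 pairs, and 5 of the 7 remaining pairs did not overlap.

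In a set of 3 pairs the size of the difference changed with the probes or values used. Myoz1 exceeded Myoz2 by 3.41 ± 0.49 with probes averaged. With the highest probe of each gene the difference was 1.14 ± 0.45, without overlap. Without the Myoz2 clone probe listed at 0 it was 0.78 ± 0.41, and the arrays overlapped (5.55 to 6.89 for Myoz1, 4.94 to 5.73 for Myoz2). Myl1 exceeded Myl3 by 3.19 ± 0.16 with probes averaged, and by the same without zeros and recurring values. With the highest probe of each gene it did so by 0.73 ± 0.46, and the arrays overlapped (6.80 to 7.87 for Myl1, 6.07 to 7.15 for Myl3). The mean of that Myl3 probe, 6.52, lay between those of the Myl1 probes, 7.25 and 5.44. Casq1 exceeded Casq2 by 2.89 ± 2.11, a mean that rests on the 0 listed for Casq2 on array 2-2: the difference was 5.97 there, and 1.87 ± 0.63 over the other 3 arrays. Mybpc2 was above Mybpc1 on 3 of 4 arrays, and their difference of 0.043 ± 0.46 lay within the spread between arrays. With 4 arrays an exact sign permutation test cannot give a two-sided p below 0.125, so no p is given for a pair.

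Each such difference compares 2 ratios to the reference. It would be the same whether skin held more of the fast copy or the reference held more of the slow copy, and these could not be told apart without the channel intensities, which were not used here.

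**Figure D2:**
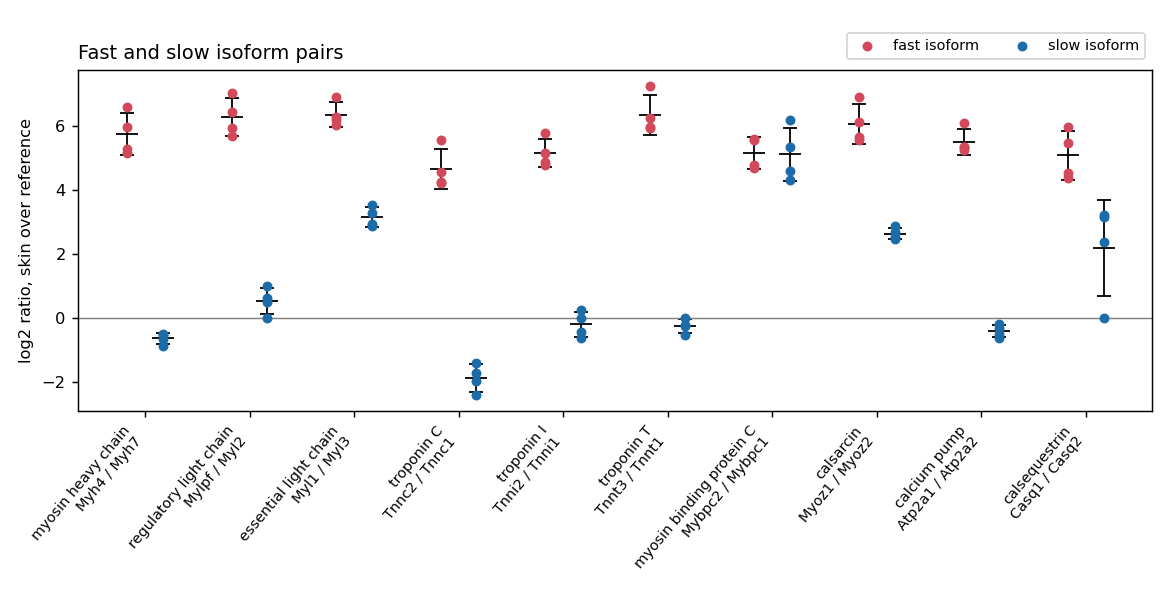
Log2 ratio of skin over reference for 10 pairs of gene copies, the fast copy left (red) and the slow copy right (blue); dots are the 4 arrays, black bars the mean with its SD. With probes averaged, the arrays of the 2 copies do not overlap in 9 pairs; Myoz2 and Myl3 are averages of a high probe and a probe near 0, and values of Myh7, Myl2 and Tnni1 are mostly 0 or recurring.

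The means of the 4 cardiac genes lay between -1.004 and 0.71. Actc1, cardiac alpha-actin, stood at -1.06, -0.87, -1.33 and -0.75 and was lower in skin (mean -1.004 ± 0.26, adjusted p = 0.00559), just past the minimum size; its mean was -0.98 without array 1-1 and -0.89 without array 2-1, which ended the call. Tnnt2, the cardiac troponin T, stood at -0.31, -0.41, -0.46 and -0.33, and Tnni3, the cardiac troponin I, at 0.99, 0.70, 0.43 and 0.74. Myh6, a heavy chain of the heart, stood at 0.76, 0.85, 0 and -0.16, with 7 of its 8 probe values 0 or recurring. None of these 3 reached the minimum size. Of 10 further cardiac genes none was higher and 2 were lower, against 11.0% and 7.51% of all genes. The 2 were Mybpc3, the cardiac myosin binding protein C (-3.29, -4.66, -4.11 and -3.20), and Nkx2-5, a heart transcription factor (-2.31, -2.71, -2.66 and -1.68). Myl4, the atrial light chain, had the highest mean of that list (0.64 ± 0.29) and did not reach the minimum size, with Tbx5 next (0.44 ± 0.34).

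Developmental heavy chains differed from each other. Myh3 stood at 0.25, -0.33, -0.80 and 0.16, with 7 of 8 probe values 0 or recurring, and did not pass (adjusted p = 0.571). For Myh8 1 of 4 probes stood at 6.16, 5.44, 5.28 and 6.63 (adjusted p = 0.00107 over all probes), and the other 3 had means of 0.076, 0.053 and -0.10 with every value 0 or recurring. The gene mean of 1.48 ± 0.21 passed (adjusted p = 0.00142) through that probe alone: with the median of its probes it was 0.0646 (adjusted p = 0.209). The high Myh8 probe had nearly the array values of the Myh4 probe at 6.08, 5.43, 5.33 and 6.76. Of 9 genes of developing or denervated muscle 1 was higher and 1 lower, shares near those over all genes (11.0% and 7.51%). Mybph, a myosin binding protein H of skeletal muscle, was higher (4.73 ± 0.33) and Gadd45a, a stress gene, was lower (-1.91 ± 0.19). Chrna1, the acetylcholine receptor alpha subunit, stood at 0.70 ± 0.30 and did not reach the minimum size.

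Genes used by both fibre types were all higher, with mean log2 ratios from 2.48 to 7.87. Myot, a Z-disc protein, stood at 7.70, 7.76, 8.16 and 7.85, the highest of the 50 genes and among the least variable (SD 0.21). Actn2, the alpha-actinin of all striated muscle, stood at 6.86, 5.95, 6.07 and 7.65. Ckm, the muscle creatine kinase, stood at 6.80, 5.98, 5.96 and 7.19, and Acta1, skeletal alpha-actin, at 5.88, 5.48, 5.51 and 6.37. These 4 had the highest means of the class. The lowest 2 were Cacna1s, the voltage sensor of the calcium release unit, at 2.64, 2.11, 2.18 and 3.01, and Neb, nebulin, at 2.62, 3.29, 3.43 and 2.04. Adjusted p-values in the class lay between 0.000211 for Myot and 0.00723 for Ttn (limma).

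Several of the lower means of this class were averages over probes that differed widely. Cacna1s had 1 probe at 4.77, 4.22, 4.35 and 4.76 and another at 0.50, 0, 0 and 1.25, every value of the second 0 or recurring. Ttn, the giant spring protein titin, had 10 probes with means from -0.075 to 7.30, of which 3 passed by themselves, and Neb had 6 probes from 0.064 to 6.12, of which 2 passed. Ttn did not pass with the median of its probes (2.88, adjusted p = 0.126). In both giant genes some probes were far above the reference and others at or near 0. Ryr1, the calcium release channel, had a cDNA clone probe at a mean of 0.44 and RefSeq mRNA probes at 6.39 and 5.92. Xirp2, an actin-binding protein of the Z-disc, had probes at 6.66 and 5.94 and 1 more listed at 0 on all arrays. Ldb3, which links alpha-actinin to the Z-disc, ranged from 1.82 to 5.16 over 3 probes, and the M-band proteins Myom1 and Myom2 from 1.14 to 5.42 and from 1.12 to 5.08. Probes of these M-band genes that stood low were annotated to cDNA clones. The others were Tcap, the titin cap, at 5.18 ± 0.55, the intermediate filament Des at 4.39 ± 0.29, and Tpm2, a tropomyosin shared with smooth muscle, at 3.06 ± 0.24.

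Over all members, 52 of 99 probes were higher and 4 lower when each probe was tested by itself, a test added after seeing the data, against 10.5% higher and 8.22% lower of all 32664 named probes. Means above 3 were reached by 53 of 86 probes annotated to RefSeq mRNAs and by none of 13 annotated to other cDNA sequences. Of those 13 probes, 11 were listed at 0 on at least 1 array, as were 17 of the 86. Probe means differed by over 1 within 15 of the 27 genes with several probes. In Tpm3 they ranged from -1.15 to -0.053, and in Atp2a2 from -1.89 to 0.37; without its lowest probe Atp2a2 stood at 0.0853.

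**Figure D3:**
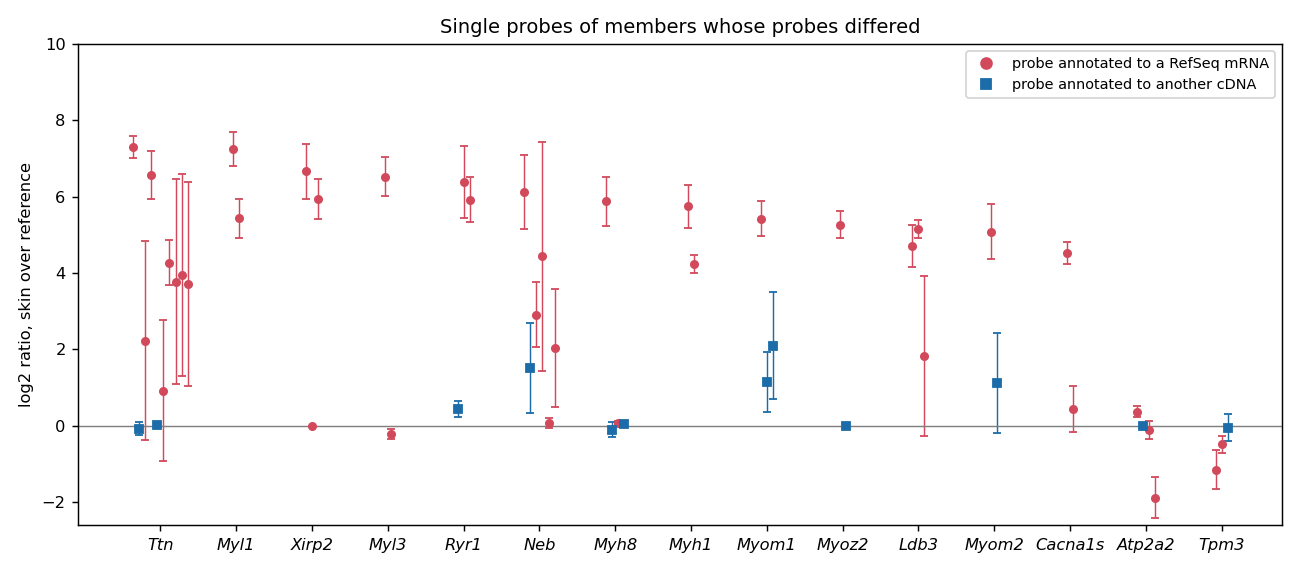
Mean log2 ratio of skin over reference with SD over arrays for each probe of the 15 members whose probe means differed by over 1; red circles are probes annotated to RefSeq mRNAs and blue squares probes annotated to other cDNA sequences. Ttn runs from -0.075 to 7.30, and Myl3 and Myh8 each hold 1 probe above 5 beside probes near 0.

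Of the 36 higher members, 29 (80.6%) were highest on array 2-2, as were 37.0% of the 2150 genes higher in skin. The fast median was 5.95, 5.34, 5.22 and 6.58 on arrays 1-1, 1-2, 2-1 and 2-2, while the slow median, which falls among genes near 0, stayed between 0.013 and 0.31. Single slow genes that were high varied as the fast ones did: the SD between arrays was 0.90 for Sln and 0.84 for Mybpc1, and at most 0.77 for a fast gene (Myh1). The gene means of Ttn, Neb and Ldb3 went the other way, with values on arrays 1-2 and 2-1 above those on arrays 1-1 and 2-2. These 3 genes had probes listed at 0 on arrays 1-1 or 2-2. Their probes without a 0 were highest on array 2-2 (up to 7.66 for Ttn, 7.54 for Neb and 5.48 for Ldb3). The exception was a Neb probe that was highest on array 1-2 (3.72). Cornified epidermis genes moved with the fast genes: 9 of the 11 that were higher peaked on array 2-2, and the median of the 14 genes was 5.57, 5.06, 4.93 and 5.61. The part of muscle content, or of the range of ratios on an array, in this difference was not tested.

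When arrays were compared by the first title number (2 against 1) or by the second, 0 of the 50 members passed in either comparison. Of all 19511 genes with a value on every array, none passed by the first number (0%; 781 at an unadjusted p below 0.05, 2 of them members) and 1 by the second (0.00513%; 966 at an unadjusted p below 0.05, none of them a member). With arrays numbered 2 minus arrays numbered 1, the median difference of the members was 0.18 by the first number and 0.23 by the second, against 0 over all genes. By the first number 35 of the 50 members were higher on the arrays numbered 2, and by the second 42 of 50. Without exact zeros these counts were 32 and 44 of 46, and with quantile normalization 33 and 41 of 50. Quantile normalization gave median member differences of 0.0996 and 0.20. The share of all genes higher on the arrays numbered 2 was not computed. Array 2-2, where most high members peaked, is on the same side of both comparisons.

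**Figure D4:**
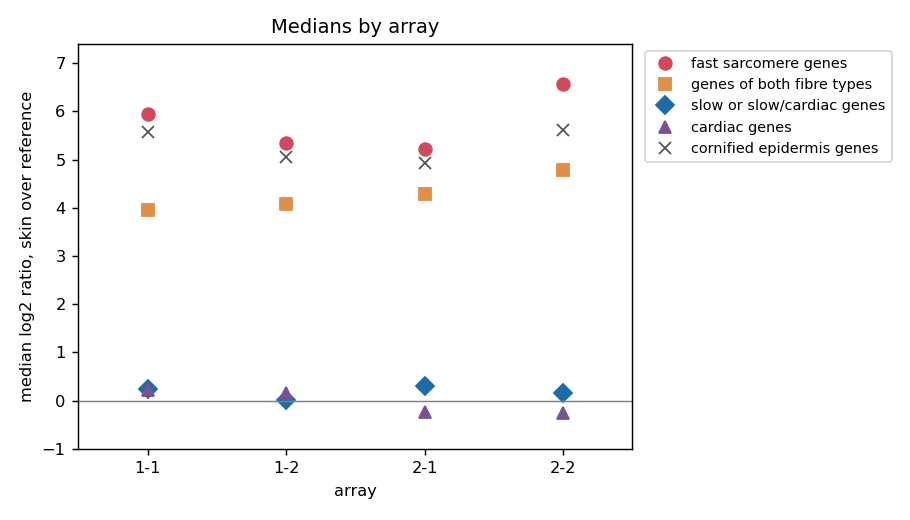
Median log2 ratio of skin over reference on each of the 4 arrays for fast genes, genes of both fibre types, slow genes, cardiac genes and cornified epidermis genes. Fast and cornified epidermis genes are both highest on array 2-2 (6.58 and 5.61) and lowest on array 2-1 (5.22 and 4.93), and slow and cardiac medians lie between -0.25 and 0.31.

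Other genes of the sarcomere, the Z-disc and the triad were mostly higher too. Of 56 measured, 39 were higher and 2 lower (against 11.0% and 7.51% of all genes), with a median log2 ratio of 2.78. Among 16 other filament and M-band genes, 8 were higher, led by Lmod3, a thin filament nucleator (5.80 ± 0.31), and Tmod4, which caps thin filaments in skeletal muscle (5.56 ± 0.32), and Mybpc3 was lower. Among 24 other Z-disc and costamere genes, 18 were higher, led by the LIM-domain proteins Pdlim3 (6.39 ± 0.60) and Fhl1 (5.77 ± 0.18), and 1 was lower, Ankrd1, a stretch-responsive titin partner of heart (-4.05 ± 0.36). Among 16 other triad and calcium genes, 13 were higher, led by Hrc, a calcium-binding protein of the reticulum (5.40 ± 0.50), and Srl, sarcalumenin (5.13 ± 0.31), while Ryr3, the minor ryanodine receptor, stood lowest (-0.60 ± 0.26) and did not reach the minimum size. Of 14 muscle energy genes 13 were higher, with the mitochondrial Cox8b (7.29 ± 0.53) and Ckmt2 (6.65 ± 0.72) at the top and Phka1, a phosphorylase kinase subunit (0.55 ± 0.41), not passing.

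Myogenic regulators were mixed. Of 10 genes of myogenic and satellite cells, 4 were higher, against 11.0% of all genes, including Vgll2, a TEAD cofactor of skeletal muscle (3.11 ± 0.38), and Pax3, a progenitor factor, was lower (-1.03 ± 0.20). Myf6, the regulator most tied to mature fibres, stood at 0, 5.28, 5.27 and 5.24, listed at 0 on array 1-1, and did not pass (adjusted p = 0.0713).

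Some members are also made outside skeletal muscle. Of 10 smooth muscle genes, 3 were higher (against 11.0% of all genes), led by the smooth muscle heavy chain Myh11 (4.64 ± 0.35) and Synpo2, an actin-binding protein (2.50 ± 0.40), and 2 were lower (against 7.51%), with Cald1, caldesmon, at the bottom (-1.64 ± 0.23). The median of this list lay between 0.52 and 0.74 on the 4 arrays. Of 9 genes used as brown fat markers, 5 were higher (against 11.0% of all genes), led by Cox8b, which muscle also makes, and Cidea, a lipid droplet protein (6.05 ± 0.89). Ucp1, the defining marker of brown fat, had 0.16 on array 1-1, a recurring value there, and an exact 0 on 1-2, 2-1 and 2-2. The median of the list lay between 2.28 and 2.88. The part of smooth muscle or fat cells in the ratios of Des, Tpm2 and Sln was not tested.

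**Figure D5:**
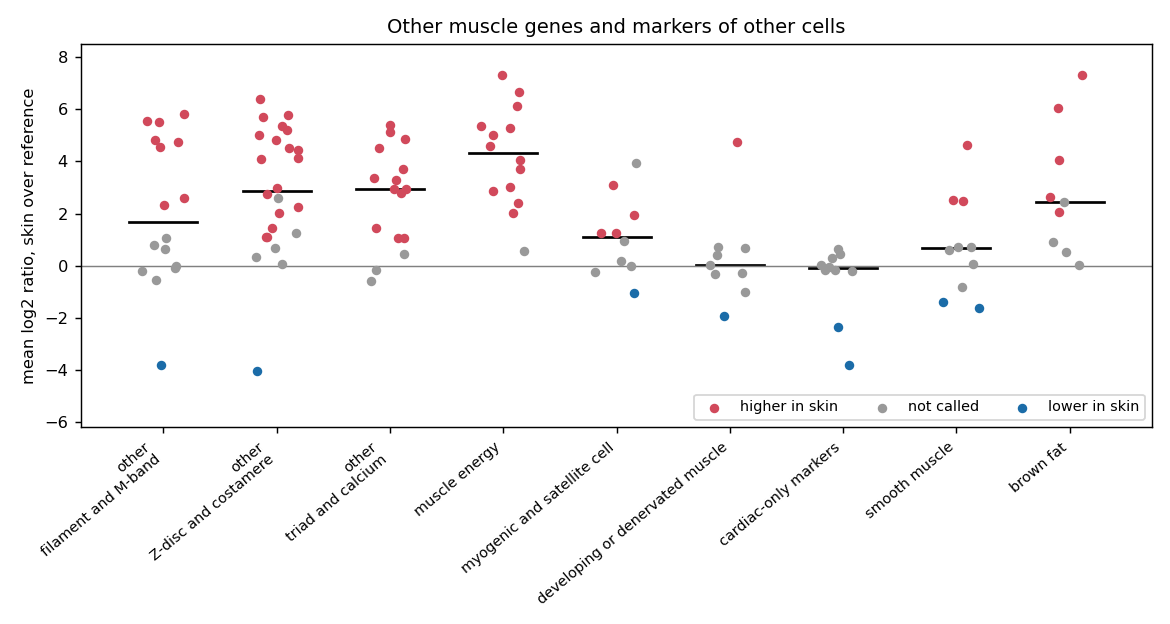
Mean log2 ratio of skin over reference for each gene of 9 further lists; dots are genes, coloured by whether they were higher, not called or lower, and black bars are list medians. Muscle energy genes have the highest median (4.32), and cardiac-only markers (-0.10) and genes of developing or denervated muscle (0.021) lie near 0.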

How the data were processed

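Per the labels, RNA came from a Qiagen fibrous-tissue extraction, and 200 ng per sample entered Agilent Quick-Amp labelling. The authors deposited 1 log ratio of the 2 channels per probe and array. How background was corrected, how ratios were normalized, their log base and their direction: not given in the sources used here. From their spacing, the deposited values were taken as log2: among the 40 commonest values of each array, 21 of 3120 pairs lay 2 times the log2 of 2 apart (tolerance 0.001), against 2 for natural logs and 3 for log10. Each column's median was 0, and which step set it stays unknown. Precision is limited by the 4 arrays.

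Of 41174 probes, 32664 have 1 gene symbol in the platform annotation, 45 have several and 8465 are not named here; only the first kind was used. By Entrez ID, 32524 matched GRCm38.p6 and took its symbols. Probes were averaged per gene. Genes needed values on 3 or more arrays and were tested with limma 3.58.1 in R 4.3.3 (mean against 0, two-sided, Benjamini-Hochberg over all genes). The fit was tested on simulated data. Figures used matplotlib 3.10.9 in Python 3.11.15.

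The members, lists, classes and pairs were chosen with earlier results of these data known. All members are accounted for; fast, slow, cardiac and developmental genes are given by array, with the 4 highest and 2 lowest genes of both fibre types, any member with a 0 or with probes over 1 apart, and of each other list the 2 highest and the lowest gene. Alternatives covered zeros, recurring values, probe summaries, scaling, the title numbers and single arrays.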

Additional observations from a re-analysis of the deposited data

Results flagged for a closer look

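Of 57 array profiles examined (50 genes and 7 medians), 2 had an array far from the other 3 by Dixon's ratio of the gap to the range, for which chance alone flags about 1 group in 20. Atp2a1, the fast calcium pump, had a ratio of 0.883, with 6.09 on array 2-2 above 5.24, 5.34 and 5.32 on the others. Ryr1, the calcium release channel, had a ratio of 0.854, with 5.07 on array 2-2 above 3.95, 4.07 and 3.90. Both genes stayed higher in skin without array 2-2.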

How the results depend on the processing

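Of the 38 members called, 34 kept their call and direction in each of 15 alternatives that gave them a value; the exceptions were Actc1, Tnnc1, Myh8 and Ttn. Leaving out 1 array at a time gave 36 to 37 members higher and 1 to 2 lower, with 1987 to 2162 of all genes higher and 1327 to 1467 lower. Class medians then ranged from 5.46 to 5.93 (fast), 0.15 to 0.32 (slow), -0.0866 to 0.0718 (cardiac), 0.55 to 0.79 (developmental) and 3.99 to 4.29 (both fibre types). With a 2-fold change as the null (limma's treat), 1338 of all genes passed as higher and 694 as lower, among them 36 members higher and 0 lower, where limma's test against 0 called 2 lower. Medians moved by more than the spread between arrays as follows. Without exact zeros they were 1.04 for developmental genes and 4.76 for both fibre types. Without exact zeros and recurring values they were 3.03 for slow (10 genes), -0.76 for cardiac (3 genes), 5.87 for developmental (1 gene) and 4.91 for both fibre types, since fewer genes and probe values entered. With the median of a gene's probes they were -0.0579 for developmental genes and 4.68 for both fibre types, and with the farthest probe of genes with 3 or more dropped -0.0855 and 3.18. Over genes with no zero they were -0.20 for slow (11 genes) and -0.38 for cardiac (3 genes). Signs turned for Atp2a2 with its farthest probe dropped (0.0853), Pln without array 1-1 and Myh3 without array 2-1, none of them called; leaving out 1 array gave -0.0817 to 0.028 for Pln and -0.32 to 0.0273 for Myh3. The 1 gene called by the second title number fell to 0 without zeros, without zeros and recurring values, and with quantile normalization (402, 289 and 1005 genes at an unadjusted p below 0.05). Quantile normalization and equal scaling of arrays changed no member's call. Casq2 passed also with a random block for the first title number (adjusted p = 0.0376), a fit with a correlation of -0.31 between arrays sharing a number, and without exact zeros (adjusted p = 0.00012). Pairs of fast and slow copies that did not overlap numbered 5 of 7 without zeros and recurring values and 8 of 10 with each gene's highest probe, against 9 of 10; both were chosen after seeing the data. No paired analysis was possible because the arrays form 1 group. The cause of these changes was not tested beyond the genes and values left out.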
